A study of Mus musculus with 8 samples.

Results

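Genes of gluconeogenesis and of nitrogen handling were examined for histone acetylation in crypts of the mouse small intestine. The 8 genes were Pck1, Pck2, Fbp1, Slc37a4, Glul, Cps1, Otc and Arg2, named by their place in these pathways, out of 21883 protein-coding genes of the RefSeq table for GRCm38.p6. Each locus was the gene body with 50 kb on either side. H3K27ac and H3K9ac, acetyl marks of histone H3 found at active promoters and, for H3K27ac, at active enhancers, were mapped by CUT&Tag, where a transposase is tethered through an antibody to marked nucleosomes and tags the DNA there for sequencing. All groups were male C57BL/6J mice aged 9 weeks. For each mark there were 4 groups: Fed mice without tetracycline, Fast mice (food withdrawn for 24 h) without tetracycline, Fed mice given tetracycline for 21 days, and Fast mice given tetracycline for 21 days. Every group had 1 sample with 2 peak lists, so 8 lists per mark and 16 in all. The number of mice behind a list is not given in the sources used here. The labels do not say whether lists 1 and 2 came from different animals, so the spread between them may be technical. The title and design of the series pose the question of whether fasting alters crypt chromatin and whether the gut microbiota, which an antibiotic depletes, takes part in it.

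Gluconeogenesis makes glucose from lactate, glycerol and amino acids. Phosphoenolpyruvate carboxykinase, cytosolic (Pck1) or mitochondrial (Pck2), converts oxaloacetate to phosphoenolpyruvate. Fructose bisphosphatase (Fbp1) acts further along, and the transporter encoded by Slc37a4 carries glucose 6-phosphate into the endoplasmic reticulum, where its phosphate is removed. Amino acids that feed the pathway release nitrogen, which is fixed as glutamine by glutamine synthetase (Glul) or as carbamoyl phosphate by Cps1. Ornithine transcarbamylase (Otc) joins carbamoyl phosphate to ornithine to give citrulline, which the small intestine is known to release into the blood, and the mitochondrial arginase Arg2 splits arginine into ornithine and urea.

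The H3K27ac lists held 32392 to 68545 peaks covering 33.07 to 64.24 Mb, and the H3K9ac lists 17249 to 99050 peaks covering 16.54 to 47.25 Mb. Depth is unknown. Total H3K27ac cover lay between 33.07 and 55.99 Mb in Fed lists and between 48.19 and 64.24 Mb in Fast lists, which bears on every difference in covered length below. Narrow peaks were most common in Fast lists: peaks at the narrowest width made up 11.8% of H3K27ac Fast list 1 without tetracycline and 17.2%, 20.3% and 31.2% of H3K9ac Fast list 1 without, Fast list 1 with and Fast list 2 with tetracycline. All 10 epithelial markers, among them Epcam, Vil1 and Cdx2, had H3K27ac within 1 kb of a gene end in every list, and their loci summed to 172.9 to 266.2 kb of cover in Fed and 225.8 to 286.9 kb in Fast lists. Of 10 hepatocyte markers, 0 to 1 were so marked in Fed lists and 1 to 3 in Fast lists, and Alb, Ahsg, Apoh, Serpina1a, Fgb and Cyp7a1 in none. Ttr was marked in 2 Fed and 4 Fast lists, and every Fast list covered more of its locus than every Fed list (means of 3.71 kb in Fed and 8.19 kb in Fast), as at 5.29% of all genes. The summed H3K27ac cover of the 10 hepatocyte loci was 17.4 to 32.6 kb in Fed and 32.4 to 39.6 kb in Fast lists. Of 10 immune markers, 2 to 5 were marked in Fed and 5 to 6 in Fast lists, and their summed cover was 26.0 to 55.7 kb and 47.7 to 64.4 kb. Among them Ptprc, the common leukocyte antigen, was marked in 0 Fed and 4 Fast lists, as were 0.0960% of all genes. Itgam and Cd8a were marked in 2 Fed and 4 Fast lists each, Cd79a in 4 and 4, Cd3g in 3 and 3, and Cd3e in 4 and 2. Of 10 mesenchymal and endothelial markers, 0 were marked in Fed and 0 to 1 in Fast lists, with a summed cover of 28.2 to 44.1 kb and 41.6 to 57.2 kb. The part of these cells in the differences between Fed and Fast was not tested. In a bulk preparation, more cells of one type and more mark per cell cannot be told apart.

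RefSeq promoter windows (GRCm38.p6, 250 bases before to 50 after a start) were at hand for 6 of the 8 genes, and H3K27ac peaks overlapped every one of their 8 windows in all 8 lists. No share over all RefSeq windows was taken for this count, so it has no background. The 250 bases before the start are shown for 4 genes: Pck1, with the widest H3K27ac domain at its ends, Glul, with the clearest difference between Fed and Fast lists, Slc37a4, with fewer H3K9ac lists over the start after fasting, and Otc, in which none of the motifs searched was found. Capitals mark ACGTCA (the core bound by CREB-type factors), AGGTCA (the core bound by many nuclear receptors) and CCAAT, on either strand.
Pck1, chr2:173152823-173153072, plus strand: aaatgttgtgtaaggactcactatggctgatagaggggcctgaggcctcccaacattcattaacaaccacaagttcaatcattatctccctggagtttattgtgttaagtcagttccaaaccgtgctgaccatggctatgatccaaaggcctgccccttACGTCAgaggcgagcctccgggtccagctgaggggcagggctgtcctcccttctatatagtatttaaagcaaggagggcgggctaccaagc
Glul, chr1:153899679-153899928, plus strand: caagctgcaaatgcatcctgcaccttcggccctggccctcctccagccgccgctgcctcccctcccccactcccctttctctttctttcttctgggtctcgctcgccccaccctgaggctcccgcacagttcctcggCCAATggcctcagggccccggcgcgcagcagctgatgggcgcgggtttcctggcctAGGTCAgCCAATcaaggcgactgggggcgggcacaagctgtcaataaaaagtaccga
Slc37a4, chr9:44396696-44396945, plus strand: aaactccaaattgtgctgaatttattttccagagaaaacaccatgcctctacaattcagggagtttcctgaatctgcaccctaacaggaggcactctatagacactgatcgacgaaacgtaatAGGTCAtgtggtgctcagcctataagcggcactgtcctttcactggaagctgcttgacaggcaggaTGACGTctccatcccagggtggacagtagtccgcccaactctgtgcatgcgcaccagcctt
Otc, chrX:10252055-10252304, plus strand: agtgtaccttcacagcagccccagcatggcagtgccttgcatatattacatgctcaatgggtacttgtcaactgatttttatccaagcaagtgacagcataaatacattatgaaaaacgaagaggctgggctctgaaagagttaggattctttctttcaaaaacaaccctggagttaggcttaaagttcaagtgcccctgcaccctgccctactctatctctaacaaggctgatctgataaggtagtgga

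The ACGTCA core begins 91 bases before the start in Pck1 and, on the minus strand, 61 bases before it in Slc37a4. It occurs in 7.51% of 32851 RefSeq promoter windows of the same length. AGGTCA occurs in 16.3% of windows, here in Glul 57 bases and in Slc37a4 127 bases before the start. CCAAT occurs in 37.4% of windows, here at 2 places in Glul, 113 and 50 bases before the start, and in the windows of Fbp1 and Pck2. TATAAA, in 13.6% of windows, was found in the third window of Slc37a4 alone. No motif searched overlaps another in these windows. Such matches describe the sequence and are not binding sites.

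H3K27ac lay within 1 kb of a gene end at all 8 genes in all 8 lists, against 33.6% of all genes. H3K9ac did so in all 8 lists at 3 of the 8 genes, Pck2, Glul and Arg2, against 21.1% of all genes. The counts depended on the peaks taken. With peaks scoring above the median of their list, H3K27ac marked 4 of the 8 genes in all lists (20.8% of all genes), without Pck2, Glul, Cps1 and Otc, and H3K9ac 2 (12.2%). Equal numbers of top-scoring peaks from every list left 7 genes for H3K27ac (28.9%) and 0 for H3K9ac (8.11%). For H3K9ac they were 4 with lists 2 alone (29.1%) and 5 with lists 1 alone (29.3%). Pck1 and Fbp1 had H3K9ac at an end in 7 lists, Slc37a4 in 6, Otc in 5 and Cps1 in 2. Per length, the median share of the locus covered by H3K27ac over 8 lists was 15.1% at Pck1, 11.8% at Arg2, 10.3% at Fbp1, 9.58% at Slc37a4, 9.46% at Pck2, 3.95% at Cps1, 2.5% at Glul and 1.61% at Otc. The median over all genes was 2.81%. Neighbours in this order overlapped in their ranges over lists, for example Pck1 (7.56% to 24.4%) and Arg2 (6.96% to 16.2%), except Pck2 (6.65% to 12.8%) and Cps1 (1.46% to 6.18%). The 4 gluconeogenic genes, Arg2 and Cps1 thus lay above the median gene, and Glul and Otc below it. The ranges over lists of Cps1, Glul (0.72% to 6.17%) and Otc (0.87% to 3.30%) included the value of the median gene. For H3K9ac the medians ran from 9.22% at Slc37a4 to 0.47% at Otc, against 2.18% over all genes.

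**Figure D1:**
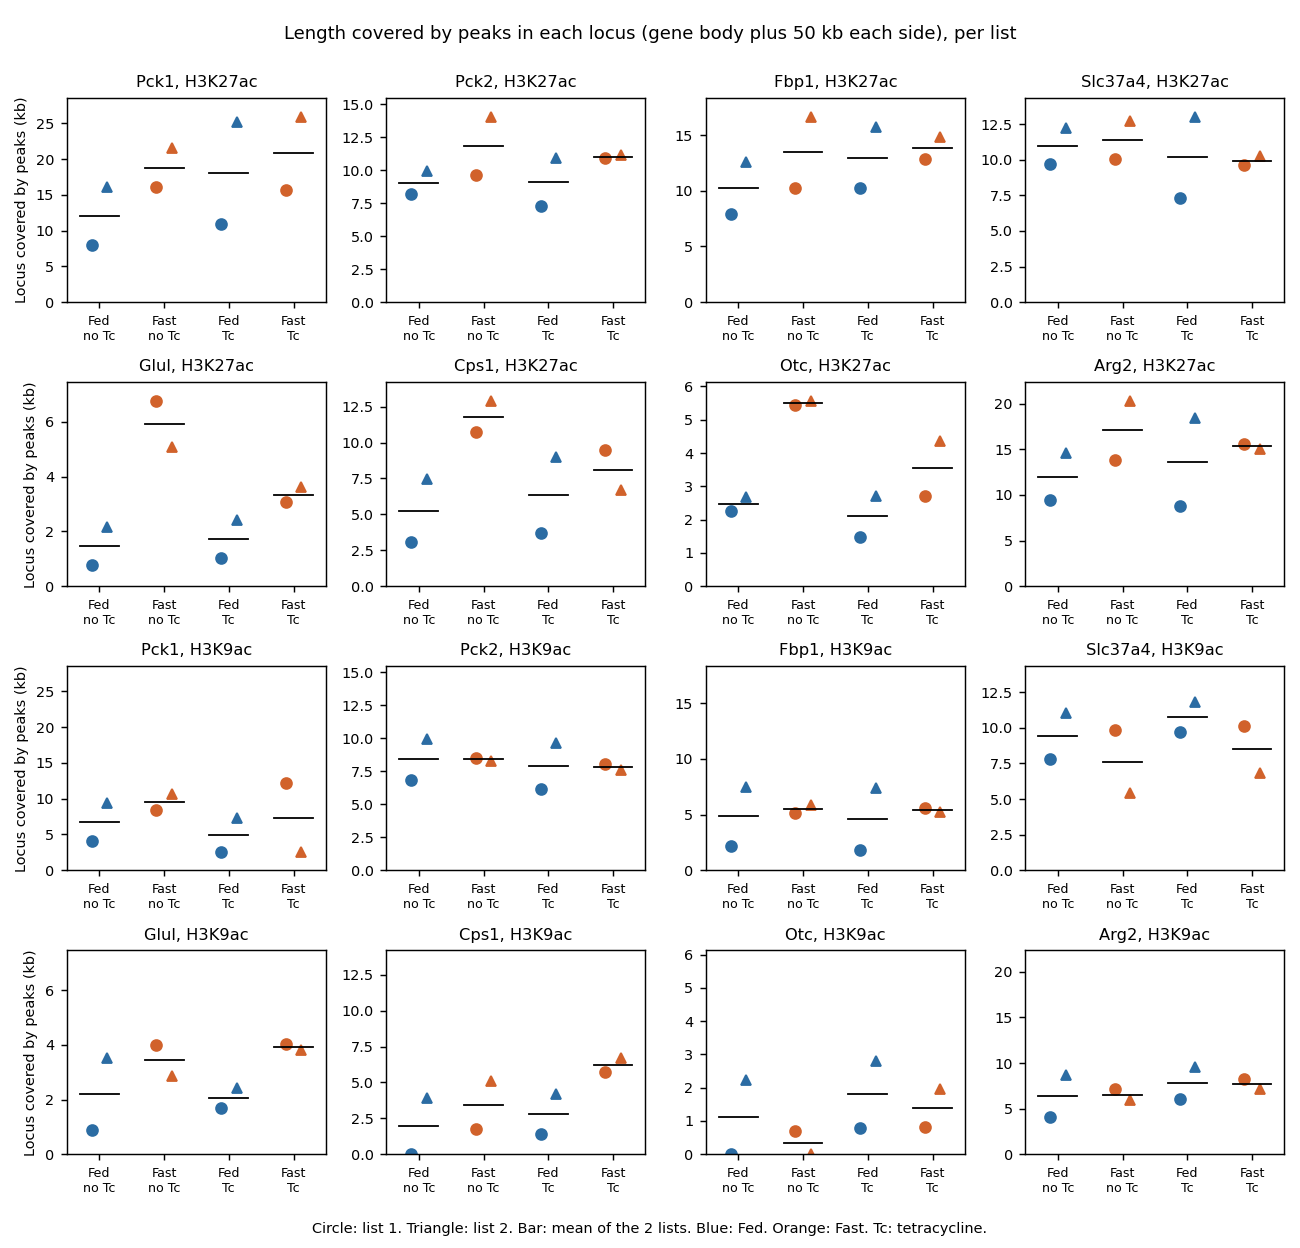
Length of each locus covered by peaks (kb, vertical axis) in every list, for H3K27ac (upper 8 panels) and H3K9ac (lower 8 panels), by feeding and tetracycline. Points are single lists and bars the mean of 2; at Glul the 4 Fast lists for H3K27ac (3.06 to 6.77 kb) sit above the 4 Fed lists (0.79 to 2.42 kb), while at the other 7 genes the feeding states overlap.

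Fasting was compared by the mean covered length in 4 Fast lists minus that in 4 Fed lists. H3K27ac cover was higher in Fast lists at 8 of 8 genes, against 73.6% of all genes and 79.5% of genes marked at an end in all 8 lists. The median difference was 2.70 kb over the 8 genes, 0.43 kb over all genes and 0.94 kb over the constantly marked ones. In 1 of the 8 loci, Glul, every Fast list covered more than every Fed list, against 5.29% of all genes and 5.91% of the constantly marked genes, and in 0 of the 8 every Fast list covered less, against 0.128%. The exact permutation of Fed and Fast within tetracycline states has 36 arrangements and a smallest two-sided p of 0.0556, so no gene could pass 0.05. No difference below therefore passed a test, and the values are described. For H3K9ac, 5 of the 8 genes were higher and 3 lower in Fast lists, with a median difference of 0.38 kb against 0.48 kb over all genes. H3K9ac cover of Fast and Fed lists overlapped at all 8 genes. The share of all genes with every Fast list higher was 3.48%, and with every Fast list lower 0.251%.

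Pck1 (chr2:173153073-173159274, 6.20 kb, plus strand) lay within the widest H3K27ac region at a gene end in this group. Peaks of the 8 lists merged into a region at chr2:173150977-173161110, 10134 bp wide, which spans the whole gene. The end peak stood at the top 1.03% of its list by score (median of 8 lists). In the Pck1 locus, H3K27ac covered 8.02 and 16.05 kb in Fed lists 1 and 2 without tetracycline, 16.04 and 21.49 kb in Fast lists without it, 10.95 and 25.14 kb in Fed lists with it, and 15.68 and 25.92 kb in Fast lists with it. List 2 was higher than list 1 in every group, and the feeding states overlapped. The Pck1 difference of 4.74 kb was smaller than the pooled SD of 7.08 kb between lists of a group (exact permutation p = 0.33, adjusted over all genes 0.95). The pooled SD, here and at the genes below, includes any shift shared by lists of the same number. Fast was higher in 4 of 4 pairs of lists with the same number. Over these pairs the exact sign-flip p was 0.125, the smallest that 4 pairs can give. Upstream of Pck1, regions at −29.4 to −27.5, −25.9 to −20.4 and −15.7 to −13.3 kb from the start were in all 8 H3K27ac lists. Regions found only in Fast lists of one tetracycline state stood in the lower part of their lists by score, one of 561 bp at −6.56 kb without tetracycline and one of 1455 bp at −18.6 kb with it. A region of 913 bp at 9.99 kb had peaks in both Fed lists and no Fast list with tetracycline.

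H3K9ac peaks over Pck1 merged into a region of 9081 bp that was in 7 of 8 lists, and 45 of the 58 peaks summed over lists lay in the flanks. The H3K9ac peaks at the ends of Pck1 summed to 1.73, 3.42, 1.09 and 3.14 kb in the 4 Fed lists and to 5.34, 7.45, 8.55 and 0 kb in the 4 Fast lists. Of the Fast lists, 3 were above all Fed lists and Fast list 2 with tetracycline had no peak there. That list is also the one with 31.2% of its peaks at the narrowest width. The 8.55 kb of Fast list 1 with tetracycline was 1 peak of score 67.81, at 81.0% of its list counted from the top score. No share over all genes was taken for these sums. Over the whole locus the H3K9ac difference was 2.60 kb, below the pooled SD of 4.31 kb (exact permutation p = 0.44).

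Pck2 (chr14:55540263-55550020, 9.76 kb, plus strand), the mitochondrial form, had a compact pattern. H3K27ac at its start formed a region of 1846 bp in all 8 lists, and no list had a peak in the gene body. In the Pck2 locus, H3K27ac covered 8.19 and 9.90 kb in Fed and 9.64 and 14.04 kb in Fast lists without tetracycline, and 7.30 and 10.94 kb in Fed and 10.88 and 11.17 kb in Fast lists with it. Fast was higher in 4 of 4 pairs, the states overlapped, and the difference of 2.35 kb was close to the pooled SD of 2.11 kb (exact permutation p = 0.28). Most of the cover belonged to neighbours: 34 of 46 flank peaks, summed over lists, lay at ends of other genes, with regions in all 8 lists at Dcaf11, at Psme1 with Fitm1, at Psme2 with Emc9, and at Rnf31. H3K9ac at the Pck2 start was in all 8 lists, and its locus cover differed by −0.043 kb.

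Fbp1 (chr13:62864753-62888298, 23.5 kb, minus strand) had H3K27ac in its body as well as at its start. Regions at 7.27 to 8.76 kb and 16.5 to 18.2 kb into the gene, the start region of 3111 bp and a region at −21.1 to −19.3 kb were in all 8 lists, as was one of 4489 bp at the end of Fbp2, the neighbouring paralogue. In the Fbp1 locus, H3K27ac covered 7.89 and 12.57 kb in Fed and 10.26 and 16.67 kb in Fast lists without tetracycline, and 10.22 and 15.76 kb in Fed and 12.84 and 14.86 kb in Fast lists with it. The states overlapped, and the difference of 2.05 kb was below the pooled SD of 3.49 kb (exact permutation p = 0.44). As cover per Mb covered in the list, the Fbp1 difference was −0.0059 kb, so its direction depended on the scale. H3K9ac at Fbp1 was lowest in the Fed lists 1, at 2.19 and 1.80 kb, and between 5.11 and 7.51 kb in the other 6 lists.

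Slc37a4 (chr9:44396946-44402966, 6.02 kb, plus strand) had H3K9ac over its starts in fewer Fast than Fed lists. The RefSeq windows at its first and second starts were covered by H3K9ac in 4 of 4 Fed lists and in 1 of 4 Fast lists, and the window at the third start in 4 Fed and 2 Fast lists. The H3K9ac peaks at its ends summed to 1.90, 3.30, 2.93 and 2.76 kb in the Fed lists and to 0.79, 0, 1.99 and 0 kb in the Fast lists. The lowest Fed list was below the highest Fast list, so the states overlapped by a small margin (exact permutation p = 0.0556, the smallest these lists can give). No share over all genes or windows was taken for the window counts or for these sums. By the 1 kb rule for gene ends, Slc37a4 was marked in 4 Fed and 2 Fast lists. Among the other pathway genes described below, Got1, Gls2 and Slc25a13 had the same numbers. Over the whole locus H3K9ac covered 7.84, 11.02, 9.72 and 11.80 kb in Fed lists and 9.84, 5.42, 10.15 and 6.84 kb in Fast lists, a difference of −2.03 kb with a pooled SD of 2.37 kb (exact permutation p = 0.28). With the same number of top-scoring peaks from every list, every Fast list was below every Fed list at Slc37a4 (−4.28 kb, against 6.02% of all genes). The same held per Mb covered in the list (4.60% of genes) and with peaks of at least 500 bp (0.864% of genes), but with lists 1 alone the difference was 1.22 kb in the other direction.

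H3K27ac cover at Slc37a4 differed least between Fed and Fast lists among the 8 genes. It was 9.68 and 12.24 kb in Fed and 10.05 and 12.74 kb in Fast lists without tetracycline, and 7.31 and 13.03 kb in Fed and 9.64 and 10.26 kb in Fast lists with it. The difference of 0.10 kb was far below the pooled SD of 2.42 kb (exact permutation p = 0.89), and it was −0.33 kb with equal numbers of top peaks. Per Mb covered in the list, every Fast list was below every Fed list, which was true of 4.98% of all genes. As at Pck2, the flanks belonged mostly to other genes, with 35 of 43 flank peaks at ends of neighbours such as Hyou1, Vps11, Rps25 and Trappc4. H3K27ac peaks over Slc37a4 merged into a region of 6031 bp, from −0.94 to 5.09 kb from the start, with a peak in all 8 lists. This region stopped short of the 3′ end of the gene, which had a peak within 1 kb in 4 lists.

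**Figure D2:**
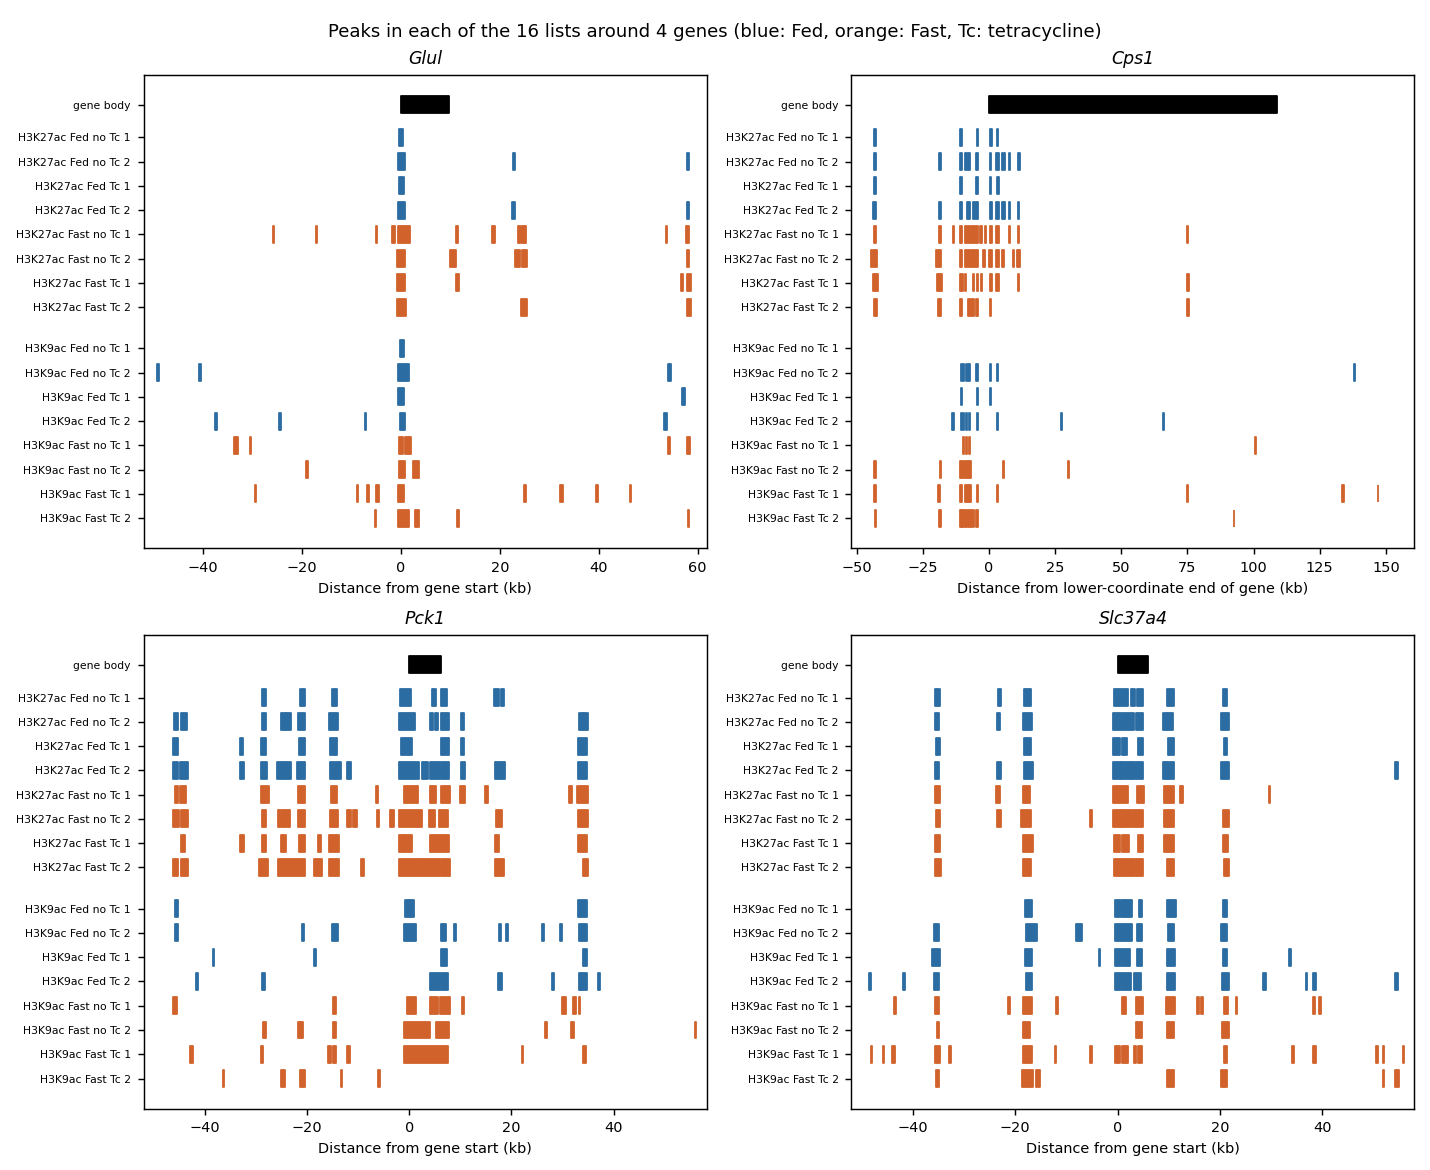
Peaks of all 16 lists (rows) along 4 loci, by distance in kb from the gene start or, for Cps1, from its lower-coordinate end; blue rows are Fed, orange rows Fast, and the black bar is the gene. At Glul several peaks of Fast lists lie 10.03 to 25.5 kb from the start, and at Cps1 acetylation clusters before the gene. At Pck1 H3K27ac peaks lie at both gene ends in all 8 lists. At Slc37a4 the H3K9ac over the start is missing from most Fast rows.

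Glul (chr1:153899929-153909723, 9.80 kb, plus strand) had the clearest separation by feeding among the 8 genes. In the Glul locus, H3K27ac covered 0.79 and 2.15 kb in Fed and 6.77 and 5.10 kb in Fast lists without tetracycline, and 1.01 and 2.42 kb in Fed and 3.06 and 3.63 kb in Fast lists with it. Every Fast list was above every Fed list in each tetracycline state and over both. The mean was 1.59 kb in Fed and 4.64 kb in Fast lists, a ratio of 2.92, and the difference of 3.05 kb exceeded the pooled SD of 0.93 kb (exact permutation p = 0.0556, adjusted over all genes 0.63). The fasting difference at Glul stood at percentile 92.9 among all genes, so larger ones were not rare. Fast was higher in 4 of 4 pairs of the same number.

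Part of the added Glul cover lay at the start and in the 3′ flank. The H3K27ac peaks at the gene ends summed to 0.79, 1.41, 1.02 and 1.38 kb in Fed lists and to 2.29, 2.78, 1.47 and 1.70 kb in Fast lists, every Fast list above every Fed list, against 2.38% of all genes. The region at the start, 2570 bp wide, was in all 8 lists. Regions at 10.03 to 11.7 kb, just past the 3′ end, and at 24.4 to 25.5 kb from the start were each in 3 Fast and 0 Fed lists, and one at 23.1 to 24.1 kb was in 2 Fast and 0 Fed lists. Fast list 1 without tetracycline alone had 11 flank peaks at Glul, the others 0 to 3, and 4 regions of the 5′ flank between −25.8 and −1.22 kb, 200 to 536 bp wide, were in that list only. A region at 22.5 to 23.1 kb was in 2 Fed and 0 Fast lists. Every Fast list remained above every Fed list with the same number of top peaks (1.34 kb, against 3.50% of all genes), with peaks scoring above the median of their list (1.69 kb, 4.32%), with flanks of 25 kb (2.42 kb, 4.91%), per Mb covered in the list (3.34%) and with peaks of at least 500 bp (2.59 kb, 4.17%). H3K9ac at the Glul start was in all 8 lists. Its locus cover was 2.13 kb in Fed and 3.68 kb in Fast lists (difference 1.54 kb, pooled SD 1.06 kb, exact permutation p = 0.11). The states overlapped through Fed list 2 without tetracycline at 3.54 kb. With peaks of at least 500 bp every Fast list was above for H3K9ac too, against 1.20% of all genes.

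Cps1 (chr1:67122426-67231267, 108.8 kb) had no other protein-coding gene in its locus, so all 51 H3K27ac flank peaks lay away from other gene ends. Regions in all 8 H3K27ac lists lay at −43.8 to −42.1, −11.1 to −9.99 and −4.99 to −4.11 kb from the lower-coordinate end and over that end itself. In the Cps1 locus, H3K27ac covered 3.05 and 7.46 kb in Fed and 10.71 and 12.91 kb in Fast lists without tetracycline, and 3.72 and 9.02 kb in Fed and 9.45 and 6.69 kb in Fast lists with it. Without tetracycline the Fast lists were above the Fed lists, and with it they overlapped. The difference of 4.13 kb exceeded the pooled SD of 2.74 kb (exact permutation p = 0.11, adjusted 0.74), at percentile 96.8 among all genes. That rank is by kb and not scaled by length, and the Cps1 locus, at 208.8 kb, is the longest of the 8. Flank peaks numbered 3, 6, 3 and 6 in Fed and 10, 10, 7 and 6 in Fast lists, whereas body peaks averaged 3 in either state. A region of 1187 bp at −6.42 kb was in 1 Fed and 4 Fast lists.

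H3K9ac at Cps1 was found before the gene more than at it. An end was marked in 2 Fed and 0 Fast lists, while 39 of 51 peaks summed over lists lay in the flanks. H3K9ac covered 0 and 3.92 kb in Fed and 1.76 and 5.10 kb in Fast lists without tetracycline, and 1.39 and 4.18 kb in Fed and 5.72 and 6.67 kb in Fast lists with it. With tetracycline both Fast lists were above both Fed lists, without it they overlapped, and the difference of 2.44 kb was close to the pooled SD of 2.10 kb (exact permutation p = 0.17). Regions at −43.3 and −19.2 kb were each in 3 Fast and 0 Fed H3K9ac lists, and the first lies inside the H3K27ac region that all 8 lists shared.

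Otc (chrX:10252230-10321024, 68.8 kb, plus strand) had the least cover per length. Its start was marked by H3K27ac in all 8 lists in a region of 2197 bp, and the only other region in all lists lay at the end of Rpgr. In the Otc locus, H3K27ac covered 2.25 and 2.68 kb in Fed and 5.44 and 5.57 kb in Fast lists without tetracycline, and 1.47 and 2.72 kb in Fed and 2.72 and 4.37 kb in Fast lists with it. Fed and Fast lists met at 2.72 kb, and the difference of 2.24 kb was larger than the pooled SD of 0.75 kb (exact permutation p = 0.11, adjusted 0.74). Fast was higher in 4 of 4 pairs. Peaks in the body of Otc numbered 0 in each Fed list and 3, 1, 1 and 1 in the Fast lists, so that every Fast list had more, which held for 0.823% of all genes. A body region 5.03 to 6.23 kb from the start was in 3 Fast and 0 Fed lists. H3K9ac was sparse at Otc, with 0 to 2.82 kb of the locus covered and no peak at all in Fed list 1 and Fast list 2 without tetracycline.

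Arg2 (chr12:79130788-79156301, 25.5 kb) had the largest number of H3K27ac regions, 26, of which 6 were in all 8 lists. Those in all lists lay at its lower-coordinate end, at 10.1 to 11.3 and 18.3 to 20.1 kb in its body, at −38.5 and −28.7 kb, and at the ends of Vti1b and Rdh11. In the Arg2 locus, H3K27ac covered 9.40 and 14.63 kb in Fed and 13.88 and 20.32 kb in Fast lists without tetracycline, and 8.73 and 18.42 kb in Fed and 15.62 and 15.06 kb in Fast lists with it. The states overlapped, and the difference of 3.42 kb was below the pooled SD of 4.52 kb (exact permutation p = 0.33). The end peaks of Arg2 averaged 1.40 kb in Fed and 1.42 kb in Fast lists. H3K9ac cover was 7.12 kb in Fed and 7.14 kb in Fast lists, with an end marked in all 8.

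Several of these values turned on the list number taken. With lists 2 alone, H3K27ac was higher in both Fast lists than in both Fed lists at 3 of the 8 genes, against 12.1% of all genes, and with lists 1 alone at 7, against 53.0%. For H3K9ac, lists 1 alone gave 7 of 8 genes with both Fast lists higher (70.4% of all genes), and lists 2 alone gave 1 higher (6.35%) and 5 lower (36.6%). The direction of H3K9ac therefore turned with the list number at Pck1, Pck2, Fbp1, Slc37a4, Otc and Arg2, and only Glul and Cps1 were higher in Fast lists both ways. Total H3K9ac cover turned as well. In lists 1 it was 16.54 and 21.53 Mb in Fed and 47.25 and 47.18 Mb in Fast lists. In lists 2 it was 38.93 and 37.68 Mb in Fed and 27.14 and 30.47 Mb in Fast lists. The part of these totals in the turn at single genes was not tested. For H3K27ac, only Slc37a4 turned. With flanks of 25 kb, Pck2 and Otc joined Glul in having every Fast list above every Fed list for H3K27ac, 3 of 8 genes against 4.91% of all genes.

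**Figure D3:**
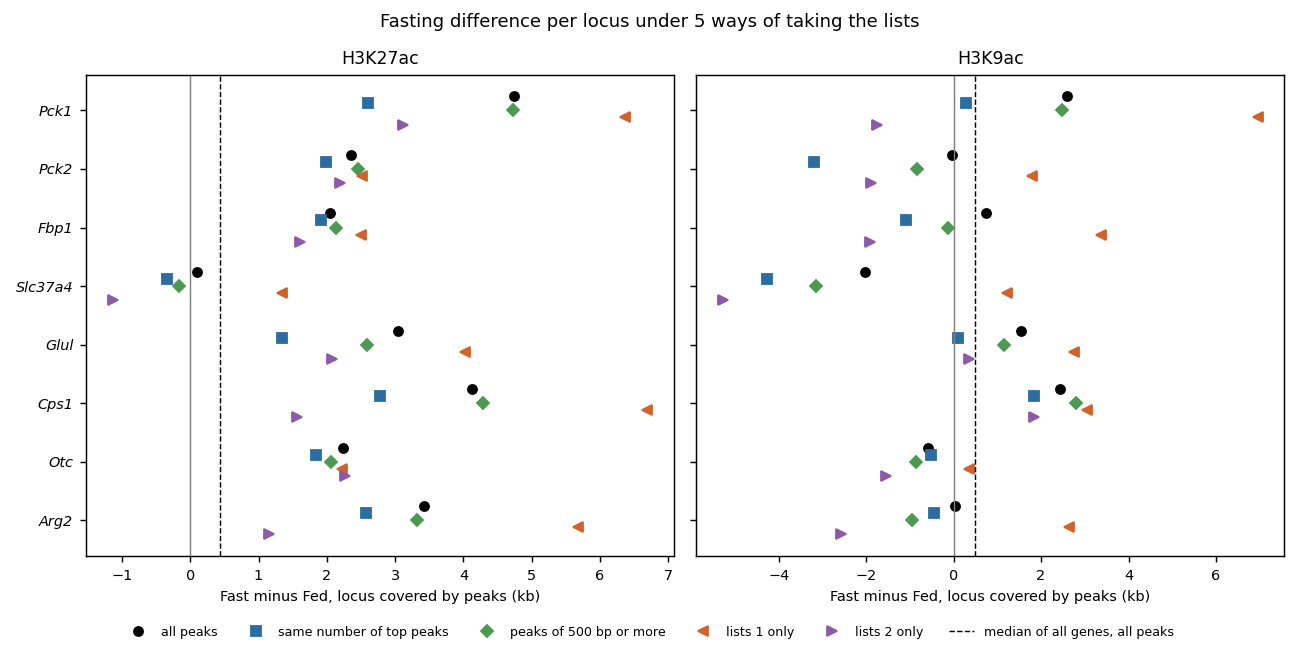
Fast minus Fed covered length (kb, horizontal axis) for each gene under 5 ways of taking the lists, with the median of all genes as a dashed line. For H3K27ac all genes but Slc37a4 stay to the right of 0 in every setting drawn; for H3K9ac lists 1 and lists 2 point to opposite sides at 6 of the 8 genes.

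Tetracycline lists overlapped untreated lists at all 8 genes in both marks. Every tetracycline list covered more than every untreated list at 0.128% of all genes for H3K27ac and 0.238% for H3K9ac, and less at 1.22% and 0.142%. The median difference of tetracycline minus untreated lists was −0.75 kb over the 8 genes for H3K27ac, against −0.23 kb over all genes, and 0.52 kb for H3K9ac, against 0.096 kb. Pck1 went the other way from most genes in H3K27ac, at 4.02 kb, percentile 99.99 of all genes, but with a pooled SD of 7.08 kb and 3 of 4 pairs (exact permutation p = 0.5). Its H3K9ac difference was −1.97 kb. Fbp1 was also higher with tetracycline in H3K27ac, by 1.57 kb (percentile 98.8, pooled SD 3.49 kb, exact permutation p = 0.5), and the other 6 genes were lower by the mean. Otc had lower H3K27ac cover in tetracycline lists by the mean, 2.82 against 3.98 kb (exact permutation p = 0.17). In kb, the fasting difference in H3K27ac was smaller with than without tetracycline at all 8 genes. This was so at 64.8% of all genes and 74.8% of those marked at an end in all 8 lists. Examples were 1.63 against 4.47 kb at Glul, 1.70 against 6.56 kb at Cps1 and 1.45 against 3.04 kb at Otc. Per Mb covered in the list, it held at all of the 8 but Pck2 and Slc37a4. Pck2 cover per Mb without tetracycline was 0.2175 and 0.1861 kb in Fed and 0.1816 and 0.2186 kb in Fast lists. With tetracycline it was 0.2206 and 0.1954 kb in Fed and 0.2131 and 0.2318 kb in Fast lists. Exact permutation of Fed and Fast within tetracycline states gave p between 0.39 and 0.83 for the change in the fasting difference in kb. It cannot decide whether tetracycline changed the fasting difference. Where both states differ in the same direction, some rearrangements always give a larger value than the observed one. A change with tetracycline was therefore neither shown nor excluded.

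Merging peaks of the 8 lists gave 118 H3K27ac regions in the 8 loci, 31 of them in all 8 lists (26.3%, against 14.6% of regions in the genome), and 198 H3K9ac regions, 7 of them in all 8 lists (3.54%, against 1.52%). No region in these loci was in all 4 lists of one feeding state and none of the other. In the genome such regions made up 0.400% (Fast) and 0.0837% (Fed) for H3K27ac and 0.0189% and 0.0145% for H3K9ac. Without tetracycline, H3K27ac peaks of each Fast list and of neither Fed list met in 8 of the 118 regions, against 3.10% in the genome, and 0 had the reverse pattern, against 1.20%. The 8 lay at Glul (3), Arg2 (2), Pck1, Cps1 and Otc. With tetracycline the numbers were 2 (1.91%) and 1 (1.05%). For H3K9ac the numbers were 1 (0.635%) and 0 (0.365%) without and 6 (0.972%) and 1 (0.442%) with tetracycline. Among H3K27ac regions in the flanks, 52 were in more Fast than Fed lists, 10 in more Fed lists and 23 in equal numbers, while in gene bodies the numbers were 9, 10 and 5. Of the 85 flank regions 33 were in a single list, as were 6 of the 24 body regions. Shares in the genome were not taken for flanks and bodies apart, so these counts have no background. Over all places, 52.5% of the 118 regions were in more Fast lists, against 59.4% of regions in the genome. Among regions in 2 or more lists the shares were 35.4% and 30.8%.

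A list of 25 other genes of gluconeogenesis, the urea cycle and amino acid metabolism was read in the same way. H3K27ac marked an end in all 8 lists at 14 of the 25, against 33.6% of all genes, and H3K9ac at 6, against 21.1%. Cover was higher in Fast lists at 19 and lower at 6 for H3K27ac (median difference 0.90 kb), and higher at 13 and lower at 12 for H3K9ac (median 0.096 kb). Of all genes, 73.6% were higher and 18.5% lower for H3K27ac, and 74.0% and 23.7% for H3K9ac. None of the 25, and none of the 8, had a peak at an end in all 4 lists of one feeding state and none of the other. This pattern was found for 0.0960% (Fast) and 0.0137% (Fed) of all genes in H3K27ac and for 0.0777% and 0.0411% in H3K9ac. Arg1, the cytosolic arginase of the urea cycle, had a marked end in 1 Fed and 3 Fast H3K27ac lists and in 0 Fed and 2 Fast H3K9ac lists. Ass1, which condenses citrulline with aspartate, was marked by H3K27ac in 0 Fed and 1 Fast list, and G6pc3, a ubiquitous glucose 6-phosphatase, in 3 Fed and 4 Fast lists. Others differed by 1 list in either direction, such as Gls2 and Slc25a22, each in 4 Fed and 3 Fast lists. In H3K9ac, Aldh18a1, which makes a precursor of proline and ornithine, was marked in 3 Fed and 1 Fast lists and the aminotransferase gene Got1 in 4 Fed and 2 Fast lists, as were Gls2 and Slc25a13. G6pc, whose enzyme takes up the glucose 6-phosphate that the Slc37a4 protein carries, was marked by H3K27ac in 4 Fed and 4 Fast lists.

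**Figure D4:**
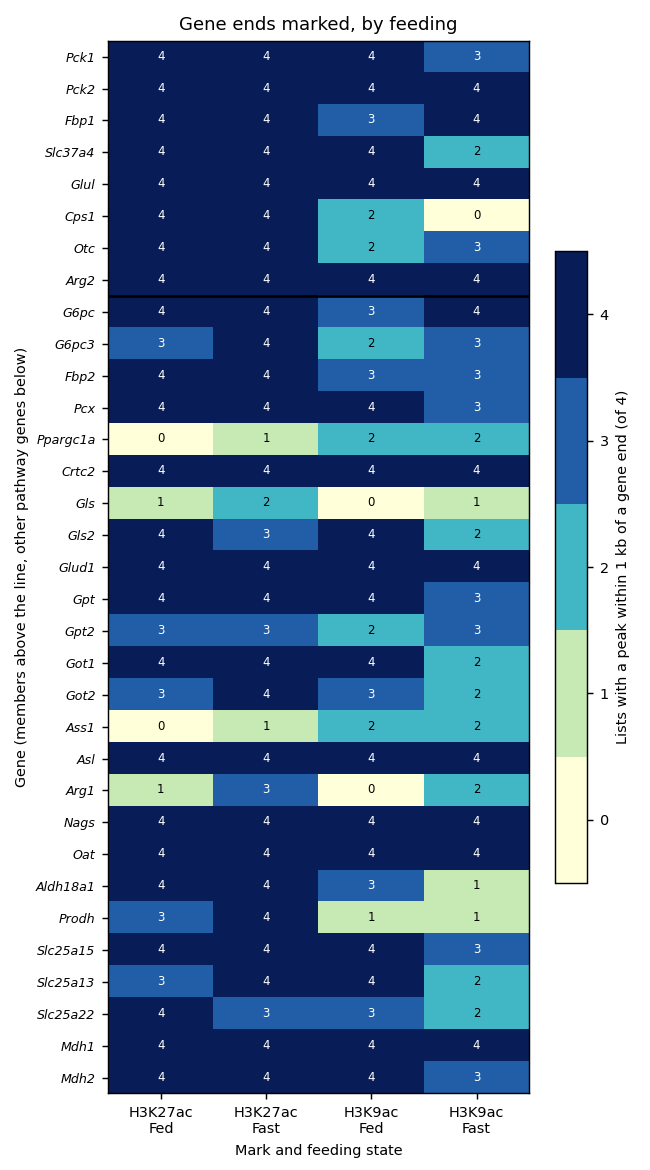
Number of lists (of 4) with a peak within 1 kb of a gene end, for the 8 genes (above the line) and the 25 other pathway genes (below), by mark and feeding state. H3K27ac columns are at 4 for all of the 8 genes in Fed and in Fast, and H3K9ac columns vary, as at Cps1 (2 Fed, 0 Fast) and Slc37a4 (4 Fed, 2 Fast).

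H3K27ac cover, with each list divided by its total covered length, was compared between genes by Pearson's r over the 8 lists, as a description. For each member, the genes on other chromosomes that varied most like it were taken. For Pck1 these were Smim43 (r = 0.98) and Ucp2 (r = 0.98), the second encoding a mitochondrial carrier. For Glul they were Itih3 and Itih4 (r = 0.99 for each), neighbours that encode heavy chains of plasma inhibitors and share most of their window. For Cps1 they were Plce1 (r = 0.97) and Gprc5b (r = 0.95), for Otc Mrtfa (r = 0.99) and Impg1 (r = 0.97), and for Arg2 Ptrh2 (r = 0.98) and Ces3a (r = 0.96). Pck2 was most like Ahcy and Cox7c (r = 0.91 for each), Fbp1 most like Ppm1b and Tmem89 (r = 0.95 for each), and Slc37a4 most like Tubg2 and Slc25a45 (r = 0.99 for each). Each value is the highest or the next among 21883 genes and carries no test.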

How the data were processed

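Peaks were called by the authors in each library, and each deposited list gives each peak's position, a name that starts with MACS and a score, at least 50 and of unstated unit. Per the submitters' processing notes, FastQC, Bowtie, SAMtools and build mm10 were used; versions and the peak cutoff are not given in the sources used here. File names call the data downsampled, and depth is unknown. The score only ranked peaks within a list.

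Peaks on chromosomes 1 to 19, X and Y were used. The covered length of each of 21883 loci was compared by exact permutation of lists within tetracycline or feeding states (36 arrangements), with Benjamini-Hochberg adjustment over all genes. Regions merged peaks overlapping by 1 bp. Genes and gene lists were chosen with earlier results of these data known. All 8 genes were described. Other pathway genes were named by the largest difference between Fast and Fed lists marked at an end, up to 3 per mark with ties in alphabetical order. Outside the rule stand Got1, Slc25a13, Slc25a22 and, for H3K27ac, Gls2, added after their values were seen as tied genes. G6pc, Epcam, Vil1, Cdx2 and other markers, named as background, are also outside it. Regions named were those in all 8 lists, or, within a tetracycline state, in both Fast and no Fed lists or the reverse, by rule 4 per gene and mark; other regions named were chosen after their values were seen. Cps1 and Arg2 had no promoter window, so their positions are from the lower-coordinate end.

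Lists with the same number deviated together in H3K27ac (r 0.30 to 0.76 over 6 pairs of groups) but not in H3K9ac (−0.096 to 0.58, over 0.1 in 3 of 6), so the numbers, known from file names alone, were taken as pairs for H3K27ac. The counting was tested on simulated lists. Scripts ran in Python 3.11.15 with pandas 2.3.3, numpy 2.4.6 and scipy 1.17.1; figures were drawn with matplotlib 3.10.9.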

Additional observations from a re-analysis of the deposited data

How the results depend on the processing

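Alternatives were the same number of top-scoring peaks per list, peaks above their list's median score, flanks of 25 kb, cover per Mb, 1 list number at a time and, added after the data were seen, peaks of at least 500 bp. Leaving aside single list numbers, 36 of 40 recomputed H3K27ac differences kept their direction and 33 of 40 for H3K9ac; with 1 list number, 1 of 16 turned for H3K27ac and 6 of 16 for H3K9ac. The cause of the changes was not tested.

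The H3K27ac count of genes with every Fast list above was 3 with flanks of 25 kb (4.91% of all genes) and 3 to 7 with 1 list number (12.1% and 53.0%); that with every Fast list below was 1 per Mb (4.98%). Genes marked by H3K27ac at an end in all lists were 4 with peaks above the median score (20.8%). The Slc37a4 H3K27ac difference was −0.334 kb with top peaks, −0.038 kb per Mb, −0.171 kb with wide peaks and −1.14 to 1.34 kb with 1 list number; at Fbp1 it was −0.0059 kb per Mb.

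The H3K9ac median was −0.484 kb with top peaks, −0.0079 kb per Mb, −0.487 kb with wide peaks and −1.82 to 2.69 kb with 1 list number. Genes with every Fast list below numbered 1 with top peaks (6.02%), 1 per Mb (4.60%), 1 with wide peaks (0.864%) and 0 to 5 with 1 list number (36.6% for the 5); those above numbered 1 with wide peaks (1.20%) and 1 to 7 with 1 list number (6.35% and 70.4%). Ends marked by H3K9ac in all lists were 0 with top peaks (8.11%) and 4 to 5 with 1 list number (29.1% and 29.3%). H3K9ac differences were −1.10 kb (top peaks) and −0.142 kb (wide peaks) at Fbp1, 0.295 kb (25 kb flanks) at Pck2, and at Arg2 −0.455 kb (top peaks), −0.030 kb (25 kb flanks), −0.056 kb (per Mb) and −0.948 kb (wide peaks). With 1 list number, H3K9ac differences ran from −1.76 to 6.95 kb at Pck1, −1.88 to 1.8 kb at Pck2, −1.91 to 3.36 kb at Fbp1, −5.28 to 1.22 kb at Slc37a4, −1.54 to 0.353 kb at Otc and −2.59 to 2.64 kb at Arg2.

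With a replicate block of 4 pairs of the same list number, the smallest possible p is 0.125. For H3K27ac the exact sign-flip p ran from 0.125, at Pck1, Pck2, Glul and Otc, to 0.875. For H3K9ac the exact sign-flip p ran from 0.125 to 1.0, and the block changed no call.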
